A study of Oryza sativa with 9 samples.

Results

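These are the genes of the young rice panicle whose transcript level was ordered ZH11-KO1 over ZH11 over ZH11-OE1. ZH11-KO1 carries a CRISPR/Cas9 knockout of *GSE9*, ZH11-OE1 overexpresses *GSE9*, and ZH11 (Zhonghua11) is the *japonica* wild type from which both lines were made. A gene was a member when its mean was at least 2 FPKM over the 9 libraries, every ZH11-KO1 value lay above every ZH11 value, every ZH11-OE1 value lay below every ZH11 value, and group means in log2(FPKM + 1) were at least 0.3 apart at each step. FPKM is the number of sequenced fragments of a gene scaled by its length and by the size of the library. The rule left out *OsSPL13* (Os07g0505200), *OsSPL16* (Os08g0531600) and *OsSPL18* (Os09g0507100), of which 2 meet it. It chose 261 genes, or 1.35% of the 19376 that reached a mean of 2 FPKM, in a table of 37863 genes.

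Each genotype had 3 RNA-seq libraries of young panicles before heading, with 1 transgenic line per construct, so that effects of a line cannot be told apart from those of *GSE9*. A ubiquitin promoter drove Cas9 in the knockout construct and the coding sequence in the overexpression construct, which is activity in many tissues rather than in the panicle alone. The libraries held between 14227327 reads in ZH11-KO1 replicate 3 and 16405688 reads in ZH11-OE1 replicate 3. A list of 11 floral MADS-box genes, transcription factors that specify floral organs, was detected whole, with none at 0 and a summed level of 1611 to 1909 FPKM in every library. A list of 7 genes of the tapetum, the anther cell layer that feeds developing pollen, summed to 439 to 561 FPKM in ZH11-KO1, 528 to 554 FPKM in ZH11-OE1 and 188 to 380 FPKM in ZH11, with none at 0. The sum of the tapetum list was thus above ZH11 in both lines and was not graded, and no gene of either list is a member. A single value weighed heavily in that sum. The highest of the list was 234 to 294 FPKM in ZH11-KO1, 294 to 310 in ZH11-OE1 and 98.8 to 209 in ZH11. In a bulk sample, fewer cells of a type and less RNA per cell cannot be told apart.

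*GSE9* is a young rice gene that arose from formerly non-coding sequence and affects the shape of the grain. The grain takes the shape of the spikelet hull, the lemma and palea that form in the panicle before heading. A knockout and an overexpression line set against the same wild type form a crude dose series, and a gene that is ordered along it is opposite in direction in the 2 lines. The members here are those whose order runs against the intended dose of *GSE9*. The row of *GSE9* itself was not identified in the table, so the dose was not measured here. The table names genes by rice identifiers, in which the digits after Os give the chromosome. The reference table used here names 1 of the 37863 identifiers and 0 of the 261 members, so what the members do is not given.

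Members were chosen by the FPKM values of all 9 libraries, in both contrasts, so their levels are a description and were not tested. Members had a median mean level of 17.1 FPKM, from 2.12 to 1379 FPKM, and the 19376 genes had a median of 13.2 FPKM. Their ZH11-KO1 minus ZH11 difference had a median of 0.52 in log2(FPKM + 1), from 0.30 to 2.69, beside a median of -0.02 over the 19376 genes. Their ZH11-OE1 minus ZH11 difference had a median of -0.53, from -1.24 to -0.30, beside -0.04 over the 19376 genes. In FPKM, the median member was 1.46-fold higher in ZH11-KO1 than in ZH11, 1.48-fold lower in ZH11-OE1 than in ZH11, and 2.21-fold higher in ZH11-KO1 than in ZH11-OE1.

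**Figure D1:**
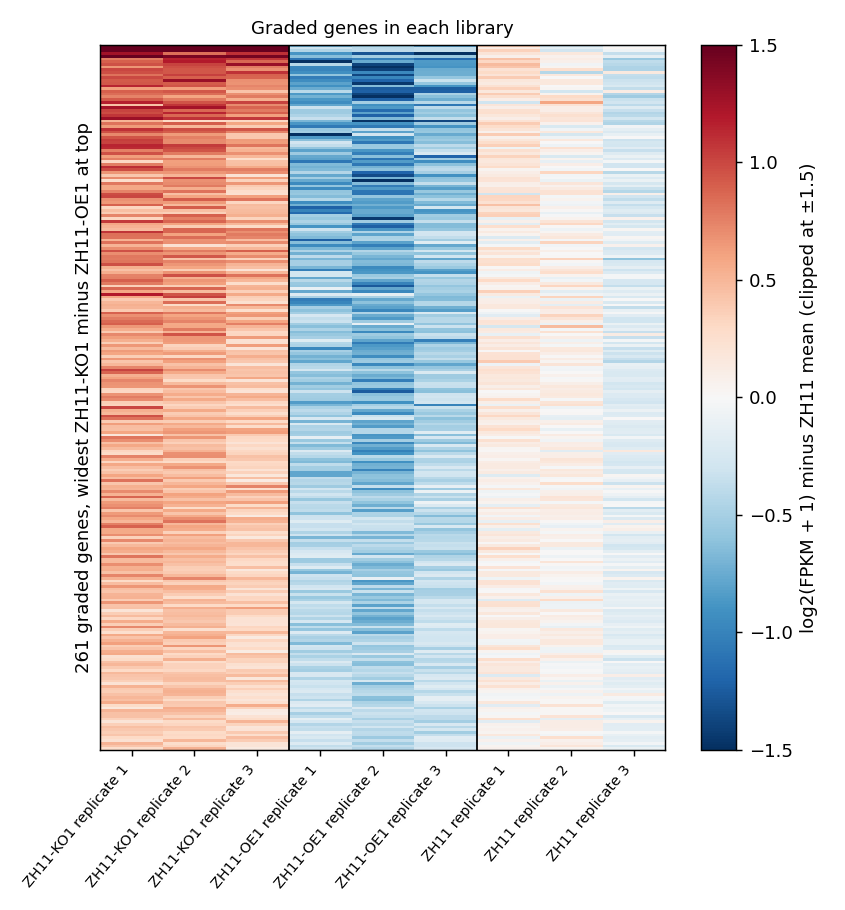
Each row is 1 of the 261 graded genes, each column 1 library, and colour is log2(FPKM + 1) minus the mean of the 3 ZH11 libraries, clipped at 1.5 in either direction. The ZH11-KO1 columns are red and the ZH11-OE1 columns blue throughout by the rule. Among the ZH11 columns, replicate 3 leans to blue on average and is lowest of the 3 in 207 of the 261 genes, whereas replicates 1 and 2 lean to red.

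The size of the 2 steps varied among members. The ZH11-KO1 step was the larger in 122 members and the ZH11-OE1 step in 139, and the steps lay within 0.1 of each other in 82. Both steps reached 0.5 in 85 members, 0.7 in 22, and 1 in 1 member. Members just inside the limit on the ZH11-KO1 step had differences of 0.3006, 0.3020 and 0.3046, and the genes just outside it 0.29996, 0.2991 and 0.2923. At the limit on the ZH11-OE1 step, the falls were 0.30002, 0.3027 and 0.3048 just inside and 0.2995, 0.2969 and 0.2929 just outside. At the limit on the mean, the values were 2.12, 2.21 and 2.24 FPKM inside and 1.88, 1.83 and 1.74 FPKM outside. Genes whose libraries did not overlap at either step numbered 430, of which 169 had a step under 0.3, and a further 356 genes had both steps but overlapping libraries. The set therefore has no natural edge.

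Members took 2.17 to 2.45% of the summed FPKM of a library in ZH11-KO1, 1.00 to 1.15% in ZH11-OE1 and 1.37 to 1.66% in ZH11. By mean level, 42 members lay at 2 to 5 FPKM, 104 at 5 to 20, 100 at 20 to 100 and 15 at 100 or more. These are 1.02%, 1.29%, 1.64% and 1.40% of the genes in the same classes, so graded genes occurred at every level.

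Os11g0435900 had the largest smaller step of all members. It stood at 18.8, 13.7 and 16.7 FPKM in ZH11-KO1, at 3.47, 2.39 and 1.84 FPKM in ZH11-OE1, and at 8.46, 8.27 and 5.47 FPKM in ZH11. Its differences from ZH11 were 1.06 in ZH11-KO1 and -1.24 in ZH11-OE1 on the log2(FPKM + 1) scale, and it was the only member with both steps of at least 1. Its gene length is 232 bases and its ZH11-OE1 values rest on 7 to 12 reads a library, so they are coarse.

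Os08g0469750 came next by the same ranking, at 5.36, 7.23 and 6.78 FPKM in ZH11-KO1, 0.719, 0.825 and 0.654 FPKM in ZH11-OE1 and 4.04, 3.02 and 1.53 FPKM in ZH11. Its 3 ZH11 values spanned more than its ZH11-KO1 values did, and its ZH11-OE1 values rest on 4 to 5 reads. Both of these members thus had few reads in ZH11-OE1.

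The following members were singled out after their values were seen. Os10g0525400 had the widest span between the lines on the log2(FPKM + 1) scale, 3.13, with 87.3, 73.6 and 75.9 FPKM in ZH11-KO1, 7.91, 8.94 and 7.52 FPKM in ZH11-OE1 and 19.1, 11.01 and 13.2 FPKM in ZH11. It was 5.47-fold higher in ZH11-KO1 than in ZH11 and 9.72-fold higher in ZH11-KO1 than in ZH11-OE1, and its libraries held 129 to 1530 reads. Its gradient was uneven, with a ZH11-KO1 step of 2.40 and a ZH11-OE1 step of -0.73.

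Os02g0113300 had the largest ZH11-KO1 step, 2.69 in log2(FPKM + 1), at 9.78, 9.92 and 10.3 FPKM in ZH11-KO1, 0.369, 0.296 and 0.335 FPKM in ZH11-OE1 and 0.855, 0.546 and 0.742 FPKM in ZH11. Its ZH11-OE1 values rest on 7 to 8 reads a library, whereas its step above ZH11 rests on 213 to 228 reads in ZH11-KO1 and 12 to 19 in ZH11. In FPKM it was 30.0-fold higher in ZH11-KO1 than in ZH11-OE1, more than Os10g0525400, and with a pseudocount of 0.1 its span was 4.55, against 3.26 for Os10g0525400.

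Os11g0115100 had the highest level of any member, at 2541, 2222 and 2188 FPKM in ZH11-KO1, 823, 661 and 810 FPKM in ZH11-OE1 and 1120, 1186 and 864 FPKM in ZH11. It alone made up 14.0 to 14.9% of the members' summed FPKM in ZH11-KO1, 10.4 to 11.03% in ZH11-OE1 and 9.70 to 11.1% in ZH11. It was 2.19-fold higher in ZH11-KO1 than in ZH11, while its highest ZH11-OE1 library lay 0.07 below its lowest ZH11 library in log2(FPKM + 1). ZH11-OE1 and ZH11 are therefore separated by little in this gene.

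**Figure D2:**
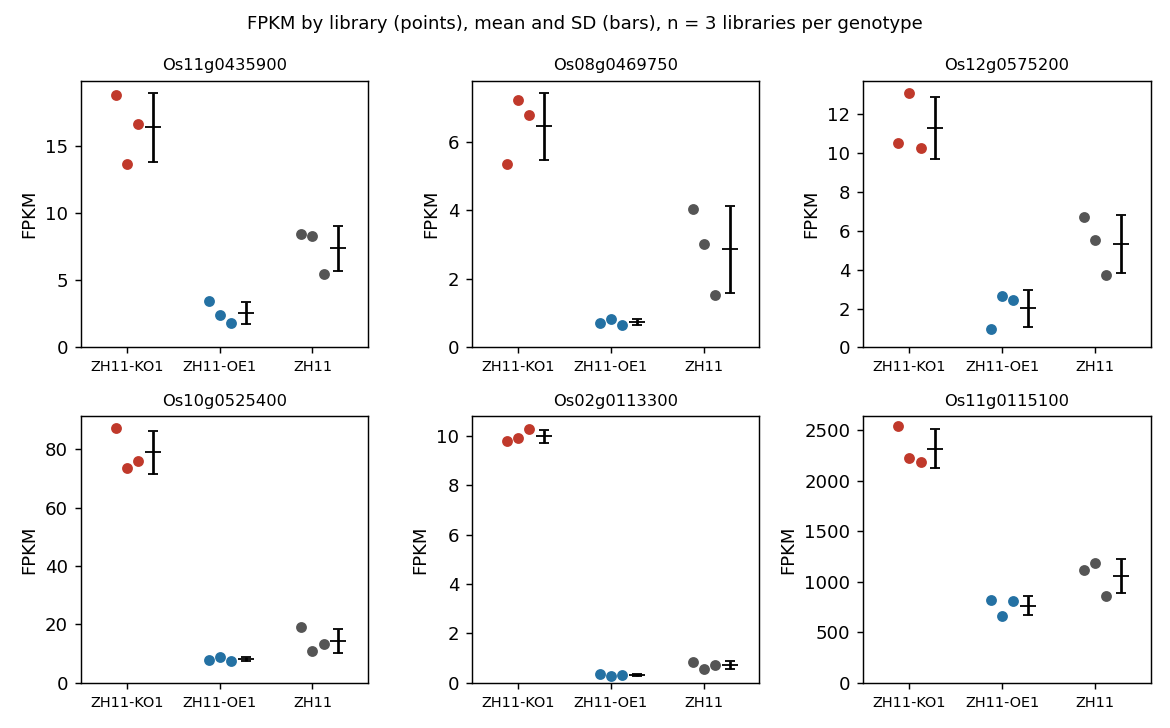
FPKM of 6 graded genes in each library (points) with the mean and SD (bars) of 3 libraries per genotype, each panel on its own linear scale from 0. Os12g0575200, the third by smaller step, stands at 10.5, 13.1 and 10.2 FPKM in ZH11-KO1, 0.932, 2.67 and 2.43 FPKM in ZH11-OE1 and 6.70, 5.51 and 3.75 FPKM in ZH11.

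The separation between genotypes was narrow in many members. The gap between the lowest ZH11-KO1 library and the highest ZH11 library had a median of 0.19 in log2(FPKM + 1) and was under 0.1 in 75 members. The gap between the highest ZH11-OE1 library and the lowest ZH11 library had a median of 0.15 and was under 0.1 in 87 members. Within a genotype, the SD of log2(FPKM + 1) over 3 libraries had a median of 0.13 in ZH11-KO1, 0.17 in ZH11-OE1 and 0.19 in ZH11. The same medians over the 19376 genes were 0.13, 0.13 and 0.15, so members spread more than the genes at large in ZH11-OE1 and in ZH11.

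That spread was shared in part between members. ZH11 replicate 3 was the lowest ZH11 library in 207 of 261 members and lay on average 0.18 below the mean of its group. ZH11-OE1 replicate 2 was the lowest of its genotype in 163 members, 0.13 below its group mean, and ZH11-KO1 replicate 3 in 183 members, 0.10 below its group mean. Over all 19376 genes these libraries lay 0.03, 0.01 and 0.03 below their group means. Across the 9 within-group deviations, the mean pairwise r was 0.37 between members and 0.03 between the genes at large, a description over libraries that share their group means. Members thus moved together in part from library to library within a genotype. Their shared order between genotypes was set by the rule. Unlike the members, the genes at large were not chosen for a direction.

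Counts by limma, a linear model fitted across the 21780 genes whose mean reached 1 FPKM, are given beside the background and read no further, because the rule used both contrasts. At a Benjamini-Hochberg adjusted p under 0.05, 128 members were called higher in ZH11-KO1 than in ZH11, where 5% of all tested genes were. In ZH11-OE1, 172 members were called lower than in ZH11, where 10% of all tested genes were. Both calls were made in 87 members, 1 of them in 126 and neither in 48, beside 92, 3085 and 18603 of all 21780 tested genes. The median standard error of a difference was 0.14 in either contrast. The 2 comparisons share the ZH11 libraries. Without ZH11-KO1 replicate 1, ZH11-KO1 replicate 2 or ZH11 replicate 3, the ZH11-KO1 count was 56, 31 or 40, and the count over all tested genes was 564, 243 or 343, against 1090 with every library. Without ZH11-OE1 replicate 1, ZH11-OE1 replicate 2, ZH11 replicate 1 or ZH11 replicate 2, the ZH11-OE1 count was 99, 51, 50 or 89, and the count over all tested genes was 1407, 838, 887 or 1661, against 2179 with every library.

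The same measure in a library that played no part in the choice was read by choosing graded genes on 8 libraries and placing the 9th. Of 251 genes graded without ZH11-KO1 replicate 1, 238 had that library above every ZH11 library, or 94.8%, where 30.1% of all genes that reached a mean of 2 FPKM did. Of 266 genes graded without ZH11-KO1 replicate 2, the share was 93.6%, beside 30.6% of all genes, and of 422 graded without ZH11-KO1 replicate 3 it was 64.9%, beside 26.4%. For a library of ZH11-OE1, the share that lay below every ZH11 library was 83.2% of 316 genes without replicate 1, 91.2% of 262 without replicate 2 and 69.2% of 373 without replicate 3, beside 43.5%, 37.2% and 32.9% of all genes. For a library of ZH11, the share that lay between the 2 lines was 66.7% of 375 genes without replicate 1, 87.0% of 299 without replicate 2 and 55.6% of 387 without replicate 3, beside 7.16%, 9.65% and 7.42% of all genes. The libraries that the left-out library was set against, and the other libraries of its genotype, were used in the choice. A higher share than over all genes, which were not chosen for a direction, is thus built in. These shares are descriptions and test nothing. ZH11 replicate 3 was the library least often in its place.

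**Figure D3:**
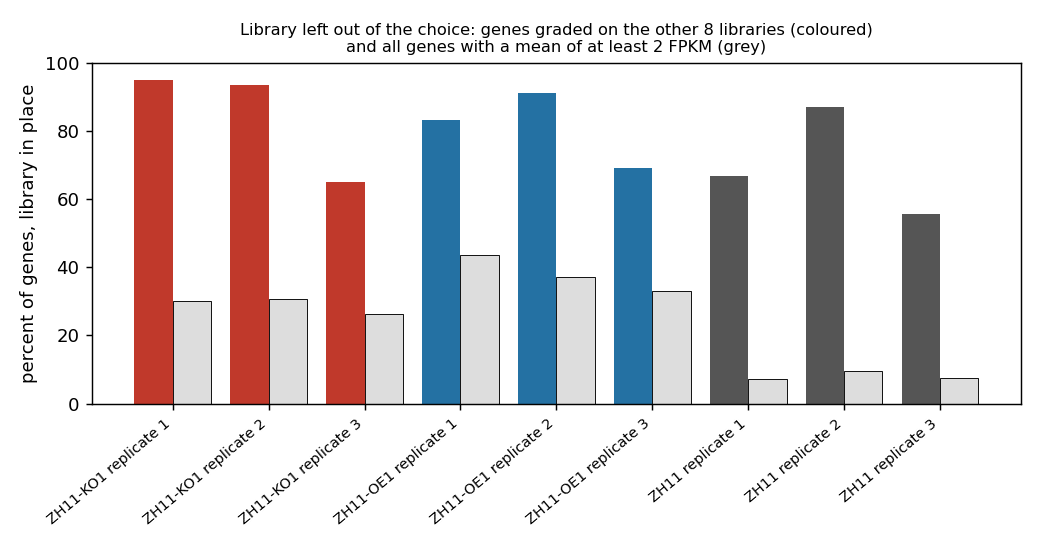
Percent of genes in which a library left out of the choice fell in its place: above every ZH11 library for ZH11-KO1, below every ZH11 library for ZH11-OE1, and between the lines for ZH11. Coloured bars are genes graded on the other 8 libraries, from 55.6% (ZH11 replicate 3) to 94.8% (ZH11-KO1 replicate 1). Grey bars are all genes that reached a mean of 2 FPKM, not chosen for a direction, from 7.16 to 43.5%.

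The order of the members was the most frequent of the 6 possible strict orders under the same limits. It held 261 genes, whereas ZH11-OE1 over ZH11 over ZH11-KO1, the reverse, held 21. The other orders held 73 genes (ZH11 highest, ZH11-OE1 lowest), 48 (ZH11-KO1 highest, ZH11 lowest), 33 (ZH11-OE1 highest, ZH11 lowest) and 24 (ZH11 highest, ZH11-KO1 lowest). A single step was common by comparison. Every ZH11-KO1 library lay above every ZH11 library, with means at least 0.3 apart, in 10.3% of the genes, and every ZH11-OE1 library lay below every ZH11 library by that rule in 15.9%. The opposite steps were met by 7.51% in ZH11-KO1 and 7.29% in ZH11-OE1. Each step of the members' order was thus the more common direction in its line. Whether the 261 genes exceed what these single-step shares would give together was not tested, so the lead over the reverse order is a description.

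Members were short genes, a property that the rule did not use. The length by which the authors scaled each gene was recovered from the whole-read steps of the FPKM values and came out whole for all 19376 genes. Members had a median length of 873 bases, from 165 to 3407, against a median of 1533 bases over the 19376 genes and 1691 bases over the 21 genes of the reverse order. When the 19376 genes were ordered by length into 5 classes of equal size, members numbered 136 in the shortest class, 65, 33 and 21 in the next, and 6 in the longest. These were 3.51%, 1.68%, 0.852%, 0.542% and 0.155% of the genes of each class. The reverse order held 5, 2, 4, 4 and 6 genes over the same classes. The share of genes that are members thus fell with length, whereas the few genes of the reverse order were spread over all classes.

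Genes that are not members followed length in the same directions. From the shortest to the longest class, their median ZH11-KO1 minus ZH11 difference was 0.11, 0.02, -0.02, -0.04 and -0.09 in log2(FPKM + 1). Their median ZH11-OE1 minus ZH11 difference was -0.14, -0.09, -0.05, 0.00 and 0.07. The members' own medians in the shortest class were 0.55 and -0.55, a size that the rule required of them. The tilt also varied between libraries of 1 genotype. The median of short genes minus that of long genes was 0.30, 0.23 and 0.10 in replicates 1, 2 and 3 of ZH11-KO1, -0.15, -0.32 and -0.15 in those of ZH11-OE1, and 0.10, 0.03 and -0.10 in those of ZH11. The libraries in which the members were lowest within their genotype, ZH11-KO1 replicate 3, ZH11-OE1 replicate 2 and ZH11 replicate 3, also had the lowest tilt of their genotype. What sets the tilt was not tested.

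**Figure D4:**
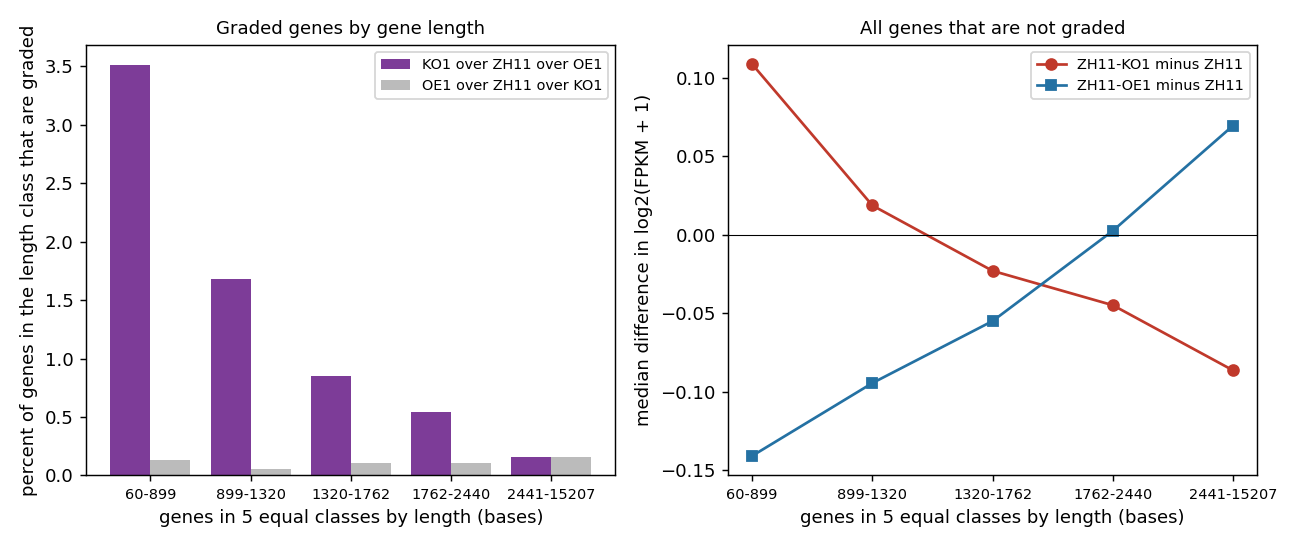
Left, percent of the genes in each of 5 equal classes by gene length (bases) that are graded, in the members' order (purple) and in the reverse order (grey): it is 3.51% in the shortest and 0.155% in the longest class for the members. Right, median difference in log2(FPKM + 1) of all genes that are not members, where ZH11-KO1 minus ZH11 is 0.11 in the shortest class and -0.09 in the longest and ZH11-OE1 minus ZH11 is -0.14 in the shortest and 0.07 in the longest.

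The length trend was then taken out of each library, an alternative chosen after seeing the data. The members then had medians of 0.44 for ZH11-KO1 minus ZH11 and -0.42 for ZH11-OE1 minus ZH11. At the same limits 155 genes were graded, of which 140 are members, so that 53.6% of members stayed in. Of the 121 that did not, 96 had a step under the limit and 25 had both steps but overlapping libraries. The reverse order then held 43 genes. The 155 genes had a median length of 1117 bases and 37.4% of them were in the shortest class. Of the members, limma then called 125 higher in ZH11-KO1, where 5.03% of all tested genes were, and 111 lower in ZH11-OE1, where 7.48% were. Os11g0435900, Os08g0469750 and Os10g0525400 stayed in, whereas Os02g0113300 and Os11g0115100 did not, with ZH11-OE1 steps of -0.29 and -0.30, the second at -0.296. The members' order remained the most frequent of the 6, but its lead over the reverse order was smaller.

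**Figure D5:**
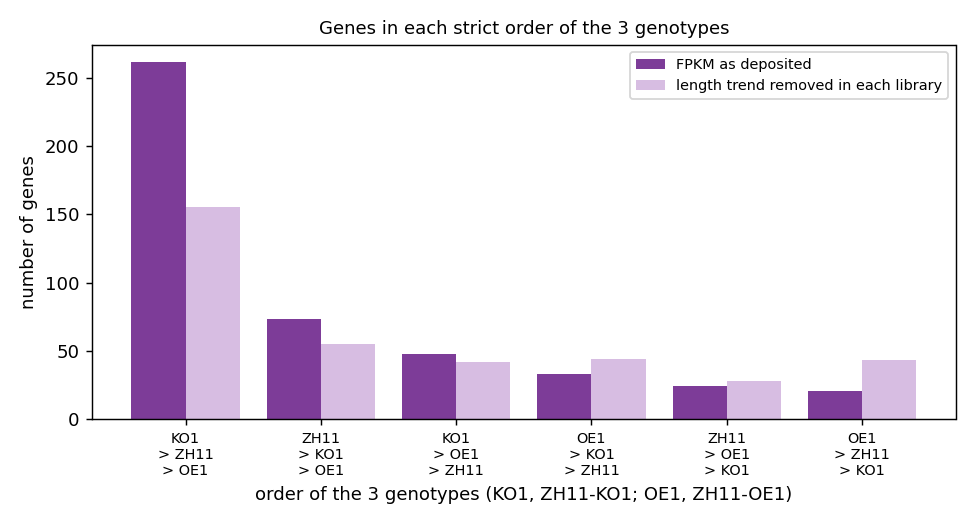
Number of genes in each strict order of the 3 genotypes, with FPKM as deposited (dark) and with the length trend removed in each library (light). ZH11-KO1 over ZH11 over ZH11-OE1 holds 261 and 155 genes, and ZH11-OE1 over ZH11 over ZH11-KO1 holds 21 and 43.

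Members were spread over all 12 chromosomes. Chromosome 3 held the most, 41, and chromosome 12 had the highest share of its genes graded, 2.14%, whereas chromosome 1 had the lowest, 1.06%. With at most 10 rows between neighbours, 29 members fell into 14 runs, the longest of 3 genes, and 232 members stood outside runs. Directly adjacent rows were both members in 5 pairs. In 1 such pair, Os12g0575000 stood at 115, 117 and 101 FPKM in ZH11-KO1, 60.1, 45.9 and 57.9 FPKM in ZH11-OE1 and 96.7, 83.1 and 71.1 FPKM in ZH11, and Os12g0575200, its neighbour, had a mean of 11.3 ± 1.58 FPKM in ZH11-KO1, 2.01 ± 0.943 in ZH11-OE1 and 5.32 ± 1.49 in ZH11 (SD, n = 3). Whether neighbours share reads was not tested, and the strand setting of the counting was not stated in the sources used here.

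Depth limited some members, among them the first 3 by smaller step, whose lowest ZH11-OE1 library held 7, 4 and 8 reads. A member had between 3 and 27882 reads in a library, with a median of 219. In 110 members at least 1 library held under 100 reads, and in 14 under 10 reads. No member was at 0 in any library. Of the members, 35 (13.4%) have identifiers that do not end in 00, against 7.33% of the 19376 genes. Such identifiers were more frequent among short genes, and within the shortest class 13.2% of members had one, against 18.7% of genes. In the longer classes the members had the higher share. From the second to the longest class it was 13.8%, 9.09%, 14.3% and 33.3% of members (9, 3, 3 and 2 members). The genes of these classes had 6.37%, 4.44%, 3.64% and 3.54%.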

How the data were processed

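RNA-seq was done on young panicles of ZH11-KO1, ZH11-OE1 and ZH11, with 3 libraries each, described in the study's reporting as independent repeats of about 200 mg of tissue. The methods place the harvest before anthesis and the labels before heading. The authors mapped reads to IRGSP-1.0 with HISAT2 (1.2 in the methods, 2.2.1 in the reporting summary), counted them with featureCounts (2.0.1) and deposited FPKM values. Their DESeq2 step was not rerun, and the main fit used the FPKM values. Reads recovered from those values entered a fit only in the alternative with voom weights. The strand setting of the counting was not stated there.

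FPKM steps gave whole reads for every gene and whole gene lengths for the 19376 genes that reached a mean of 2 FPKM. For the length correction, the deviation of each gene from its own mean over the 9 libraries was taken in log2(FPKM + 1). The median deviation in 20 length bins, interpolated between bins, was then taken off each library. Differences are on the log2(FPKM + 1) scale, which understates changes of low genes. Calls were given by limma 3.58.1 (R 4.3.3, trended, two-sided, all 9 libraries, mean of at least 1 FPKM, Benjamini-Hochberg, threshold 0.05). Its run on simulated data used independent noise and changes in ZH11-KO1 only. That run lacked the deviations that genes share within a library here, so it cannot show how the calls behave under them. Python 3.11.15, numpy 2.4.6, pandas 2.3.3 and matplotlib 3.10.9 were used. Per-library reads limit precision.

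Members and lists were chosen with earlier results of these data known. Without gene names, at most 2 identifiers were to be named, the first 2 by smaller step; every other identifier was singled out after its values were seen. Gene groups and promoter motifs could not be applied, and marker lists are from background knowledge. Same-numbered ZH11-KO1 and ZH11 libraries deviated together (r of 0.278, 0.234 and 0.316) and were taken as paired, a working choice from these same data. It enters only the fits with a replicate block, since the main fit and the rule use no pairing. Those of ZH11-OE1 and ZH11 were not (0.0234, -0.0553 and -0.279). Differently numbered libraries had r of -0.262 to -0.0218 for ZH11-KO1 and ZH11, and -0.216 to 0.274 for ZH11-OE1 and ZH11. An r of this size thus also occurred without a shared number, and the labels name no shared batch. Alternatives were other pseudocounts, minimum means, scalings, steps, fits, a replicate block, a length correction, voom weights and each library left out.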

Additional observations from a re-analysis of the deposited data

How the results depend on the processing

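The members' order held 85 genes at a step of 0.5, 617 when libraries could overlap and 155 with the length trend removed, and 251 to 422 with 1 library left out (422 without ZH11-KO1 replicate 3). After quantile normalization it held 206 genes, of which 196 are members. With libraries rescaled by median-of-ratios factors it held 224 genes, of which 200 are members, beside 27 in the reverse order. The reverse order held 13 genes at a minimum mean of 5 FPKM, 37 after quantile normalization, 82 at a step of 0.2, 4 at a step of 0.5, 63 when libraries could overlap, 43 with the length trend removed, and 16 to 40 with 1 library left out. Members called higher in ZH11-KO1 numbered 24 with no filter on low values (262 of all genes) and 77 when only the 2 groups were fitted (583 of all genes). With 1 library left out they numbered 31 to 122, beside 243 and 794 of all tested genes in the fits that gave these ends. Members called lower in ZH11-OE1 numbered 21 with no filter (513 of all genes) and 111 with the length trend removed (1630 of all tested genes). With 1 library left out they numbered 50 to 190, beside 887 and 2375 of all tested genes in the fits that gave these ends. The unfiltered fit includes 5655 genes at 0 in every library, and whether these set its lower counts was not tested. The causes of the other changes were not tested either.

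With the replicate block in the fit of all 9 libraries, 123 members were called higher in ZH11-KO1 (1045 of all tested genes). In that fit 167 members were called lower in ZH11-OE1 (2215 of all tested genes). With the block in the fit of ZH11-KO1 and ZH11 alone, 185 members were called higher in ZH11-KO1 (1718 of all tested genes). That fit was not planned, and its pairing was chosen from these same data. The same 2 groups fitted without a block gave 77 members and 583 of all tested genes. With voom weights on the recovered reads, 138 members were called higher in ZH11-KO1 (1165 of all tested genes). With the same weights 151 were called lower in ZH11-OE1 (2231 of all tested genes). With a pseudocount of 0.1, 5 differences of the genes with the largest steps, spans and levels moved by more than their spread, among them Os02g0113300 (3.65 in ZH11-KO1 and -0.89 in ZH11-OE1, both minus ZH11) and Os08g0469750 (-1.73 in ZH11-OE1 minus ZH11). Counting depth limits members with few reads, and intervals of counts cover counting error only.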

Other observations

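The reverse order, ZH11-OE1 over ZH11 over ZH11-KO1, held 21 genes, of which the following were chosen after their values were seen. Os08g0500700 had the highest level, with means of 916 ± 200.1 FPKM in ZH11-KO1, 2113 ± 412 in ZH11-OE1 and 1322 ± 376 in ZH11 (SD, n = 3). Os07g0539100 had a ZH11-KO1 minus ZH11 difference of -0.99 and a ZH11-OE1 minus ZH11 difference of 0.63 in log2(FPKM + 1), with means of 7.13 ± 0.790 FPKM in ZH11-KO1, 23.8 ± 1.23 in ZH11-OE1 and 15.1 ± 0.781 in ZH11 (SD, n = 3). Of the 21 genes, 14 were also graded in reverse with the length trend removed.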
